A study of Mus musculus with 12 samples.

Results

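The genes described here are 10 markers of macrophages and other leukocytes, *Csf1r*, *Mrc1*, *Msr1*, *Ptprc*, *Cd68*, *C1qa*, *C1qb*, *C1qc*, *Fcer1g* and *Tyrobp*, out of 20368 genes measured by RNA-seq in mouse embryonic hearts. They were chosen by their symbols as markers of fetal cardiac macrophages, with earlier results of the same libraries known. Their levels in mutant and control hearts are therefore given as a description without p-values. Nothing is read from how many of them passed a test. Whole hearts of CD1 embryos were frozen, genotyped and sequenced at E11.5 and E12.5. Mutant hearts were Mesp1Cre;Hira-/fl, with 1 null and 1 conditional allele of *Hira*, which encodes a histone chaperone. Control hearts were Mesp1Cre;Hira+/fl, so they carried the same Cre driver and kept only a single functional copy of *Hira* wherever the driver had acted. Mesp1Cre recombines in early mesoderm that forms the heart, and the whole heart was sequenced, so cells that never expressed Cre were part of every library. Each of the 4 groups had 3 libraries. The labels do not say whether a library was 1 heart or a pool, and a p-value here measures the spread between these libraries.

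Macrophages reach the embryonic heart early, from progenitors of the yolk sac, and later also from the fetal liver. They clear dying cells, take part in remodelling of the tissue and depend on CSF1 receptor signalling to survive. The 10 genes cover the main parts of this cell type. *Csf1r* encodes the growth factor receptor, and *Msr1* and *Mrc1* the scavenger and mannose receptors. Others encode the lysosomal protein CD68, the chains of complement C1q and, for *Fcer1g* and *Tyrobp*, signalling adaptors. *Ptprc* encodes CD45, a phosphatase of leukocytes. In RNA from a whole heart, fewer cells of a type and less RNA per cell cannot be told apart.

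Reads counted on genes numbered from 11994148 to 17483982 per library, and the shallowest library was E11.5 mutant 3. From Y-linked counts, the 3 controls at E11.5 were all male and the 3 mutants included 1 male, mutant 3. At E12.5 each genotype had 1 male, control 3 and mutant 1. *Hira*, the targeted gene, had 977 to 1334 counts in E11.5 controls and 735 to 1149 in mutants, and 988 to 1533 and 1076 to 1217 at E12.5. The values cover the whole gene, so they do not check the recombined part. Levels are CPM, the counts divided by TMM-scaled library sizes, and levels of different genes are compared only as RPKM, which also divides by gene length. A comparison tested those genes whose RPKM averaged 0.5 or more over its libraries, with edgeR, and called a gene when it changed at least 1.5-fold with an adjusted p no higher than 0.05. Of the 10 genes, 9 reached this minimum in each comparison, and *Ptprc* did not.

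The genes of the C1q chains lie side by side on the minus strand of chromosome 4 of GRCm38: *C1qb* at chr4:136880129-136886187, *C1qc* at chr4:136889804-136893065 and *C1qa* at chr4:136895917-136898803. *Mrc1* lies at chr2:14229392-14332057. The transcription factor PU.1, encoded by *Spi1*, directs macrophage gene expression through a purine-rich core of the ETS family. Promoter windows of 6 of the 10 genes were at hand from RefSeq (GRCm38.p6), reaching from 250 bases before to 50 bases after each start. Only the 250 bases before each start were searched, on both strands. In these parts the letters AGGAAGT occurred for 4 of the 6 genes (*Mrc1*, *Ptprc*, *C1qb* and *C1qc*), counting any window of a gene. They occurred in 7.69% of all 32851 windows, and the parts searched for *Cd68* and *Fcer1g* lacked them. The shorter GGAAGT, which AGGAAGT contains, occurred in the same 4 and in 19.7% of all windows, and the longer GAGGAAGT occurred only in that of *C1qc* and in 2.44% of all. The upstream stretches of *C1qb*, *C1qc* and *Mrc1* are shown because, of the 6 genes, *C1qb* and *C1qc* differed most between genotypes at E11.5 and *Mrc1* at E12.5. Each is written 5′ to 3′ on the strand of its gene, and the capitals mark the match, which reads ACTTCCT because it lies on the opposite strand. A match of letters is a description and not a binding site.
*C1qb*, minus strand, chr4:136886201-136886450: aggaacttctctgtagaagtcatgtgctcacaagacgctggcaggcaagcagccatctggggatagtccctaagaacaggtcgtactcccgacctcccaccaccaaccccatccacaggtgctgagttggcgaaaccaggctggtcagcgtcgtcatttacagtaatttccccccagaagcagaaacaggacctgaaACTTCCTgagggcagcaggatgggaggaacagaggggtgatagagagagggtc
*C1qc*, minus strand, chr4:136893066-136893164: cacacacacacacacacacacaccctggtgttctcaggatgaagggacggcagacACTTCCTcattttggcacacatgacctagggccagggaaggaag
*Mrc1*, plus strand, chr2:14229164-14229391: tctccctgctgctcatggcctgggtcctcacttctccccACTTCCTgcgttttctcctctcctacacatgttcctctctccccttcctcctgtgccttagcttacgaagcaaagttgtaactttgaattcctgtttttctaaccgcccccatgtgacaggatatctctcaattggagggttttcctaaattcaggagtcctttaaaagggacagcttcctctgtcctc

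The first comparison asked how the 10 genes differed between mutant and control hearts at E11.5. All 10 had a lower mean in the mutants. The fitted log2 fold changes of the 9 genes above the minimum ran from -3.48 (*Msr1*) to -1.01 (*Cd68*), with a median of -1.92, where the median over all 12197 genes was 0. The 10 genes together summed to 42.3, 73.8 and 104.7 CPM in the lowest, middle and highest control and to 18.8, 19.7 and 20.7 CPM in the mutants. For 7 of the 9 genes every mutant library lay below every control library, as it did for 8.62% of all genes tested, and only *Cd68* and *Fcer1g* overlapped. *Msr1* and *C1qb* were the 2 of 9 past both thresholds, where 0.115% of all genes were called and 0.0656% were called lower. The number called was 0 without control 1, control 3, mutant 1 or mutant 2, 1 without mutant 3 and 3 without control 2. Over all genes it was 0, 15 and 8 in these fits. Of the 9, 6 were called with DESeq2 and with all 12 libraries in 1 fit, and 4 with the replicate number as a block. Over all genes these settings called 248, 221 and 73. The genes were chosen with this contrast known, so nothing is read from these shares.

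*Msr1*, a scavenger receptor that takes up modified lipoproteins, had the largest difference. It had 74, 62 and 77 counts in the 3 E11.5 controls and 5, 7 and 6 in the 3 mutants, at 4.75 ± 0.703 and 0.421 ± 0.0980 CPM (SD, n = 3). No control and mutant came near each other, and the fitted level was 11.2-fold lower in mutants (log2 fold change -3.48, SE 0.34). *Mrc1*, the mannose receptor of resident macrophages, had 328, 97 and 188 counts in controls and 50, 83 and 28 in mutants. Its lowest control, at 6.27 CPM, was close to its highest mutant, at 5.04 CPM, for a log2 fold change of -1.92 (SE 0.44). *Csf1r*, the receptor of the ligands CSF1 and IL-34, had 491, 201 and 264 counts against 118, 92 and 52. The controls spread more than 2-fold among themselves, from 12.98 to 32.09 CPM, and the mutants lay below them between 4.48 and 7.57 CPM (log2 fold change -1.84, SE 0.34).

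The C1q chains, which together form the recognition molecule of the classical complement pathway and are made mainly by macrophages, differed alike. *C1qb* had 154, 70 and 131 counts in E11.5 controls and 22, 17 and 15 in mutants, 6.31-fold lower (log2 fold change -2.66, SE 0.36). *C1qc* had 129, 50 and 76 counts against 17, 14 and 11, 5.82-fold lower (-2.54, SE 0.41). For both genes the mutants were close together and clear of the lowest control. *C1qa* had 70, 23 and 60 counts against 9, 9 and 15, and here the lowest control, at 1.49 CPM, was near the highest mutant, at 1.29 CPM (log2 fold change -2.11, SE 0.53).

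The lysosomal and signalling members had smaller differences. *Tyrobp*, the adaptor DAP12 that pairs with receptors such as TREM2, had 100, 35 and 49 counts in E11.5 controls and 33, 8 and 19 in mutants (log2 fold change -1.53, SE 0.56), and its groups were separated only by 2.26 against 2.12 CPM. *Fcer1g*, the common gamma chain of Fc receptors, had 120, 41 and 108 counts against 26, 44 and 39 (-1.23, SE 0.44). *Cd68* had 82, 52 and 71 counts against 22, 30 and 42 (-1.01, SE 0.39). In both genes control 2 was the lowest control and lay below a mutant, at 2.65 CPM against 3.36 in mutant 3 for *Fcer1g* and at 3.36 CPM against 3.62 in mutant 3 for *Cd68*. *Ptprc* had 54, 23 and 28 counts against 20, 6 and 2, which did not overlap on the CPM scale, and in a fit with no minimum its log2 fold change was -1.88 (SE 0.59).

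**Figure D1:**
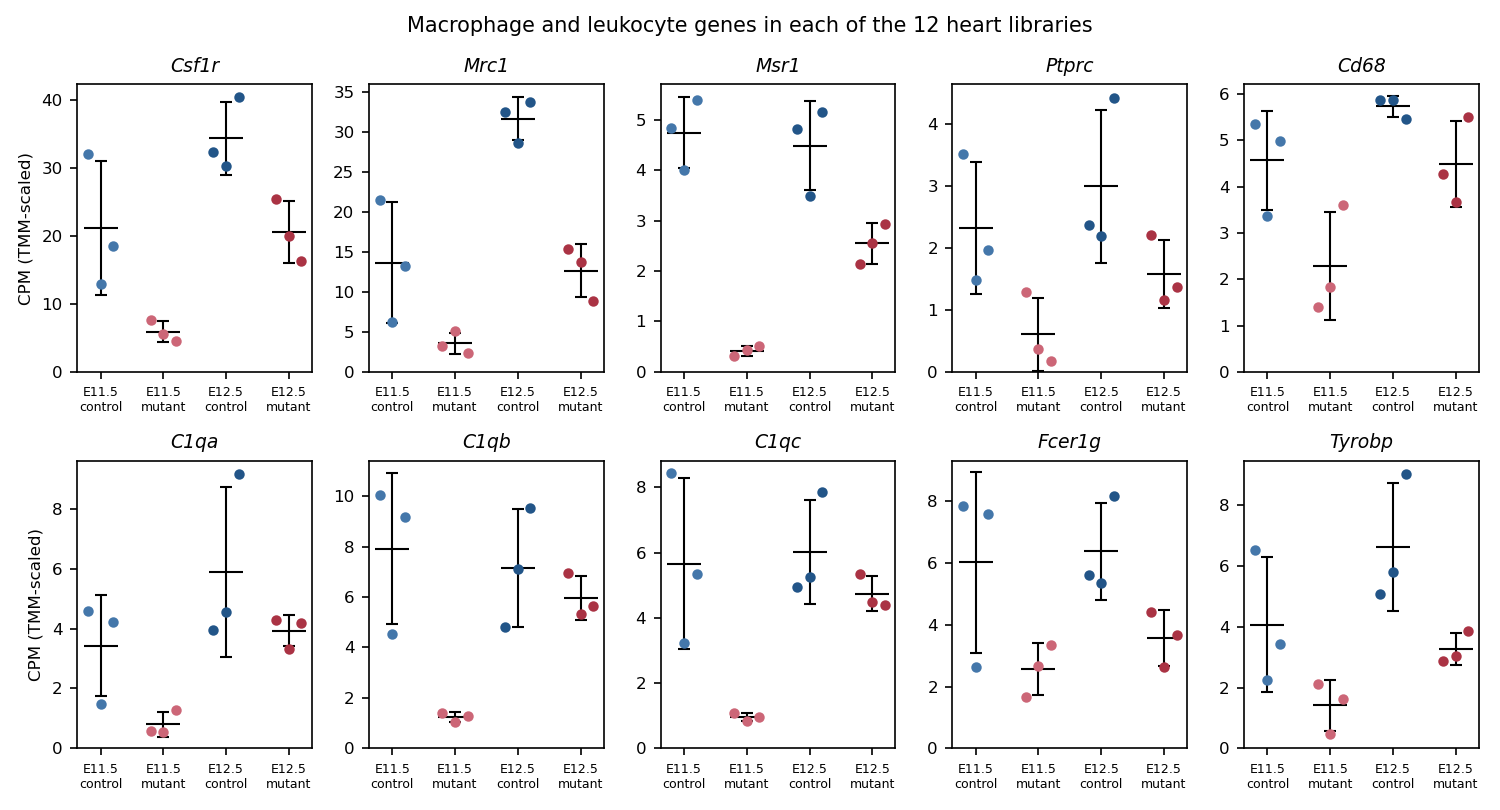
Level of each of the 10 genes (vertical axes, TMM-scaled CPM, each panel with its own scale from 0) in the 3 libraries of each of the 4 groups; points are libraries 1 to 3 from left to right, the wide bar is the mean and the whiskers are ± 1 SD. E11.5 mutants were lowest in mean for every gene, and E11.5 control 2 was the lowest control of its stage in all 10 panels.

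Among the E11.5 controls the 10 genes kept nearly 1 order of libraries. Control 2 was the lowest of its group for 10 of 10 genes and control 1 was the highest for 9 of 10. The E11.5 mutants had no such order, since mutants 1 to 3 were lowest for 3, 4 and 3 genes and highest for 5, 1 and 4. Expressed as a percentage of the mean of the E11.5 controls, the 10 genes had a median of 141% in control 1, 57.0% in control 2 and 103% in control 3, and of 25.6, 15.8 and 19.4% in mutants 1 to 3. The spread among the controls was thus wide, but the median of the lowest control was more than that of any mutant. Over all 12 libraries the 45 pairs of these genes had a Pearson r from 0.595 to 0.984 on the log2(CPM + 0.5) scale, with a median of 0.84. These pairs share libraries and depth, and the group differences are part of each r.

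**Figure D2:**
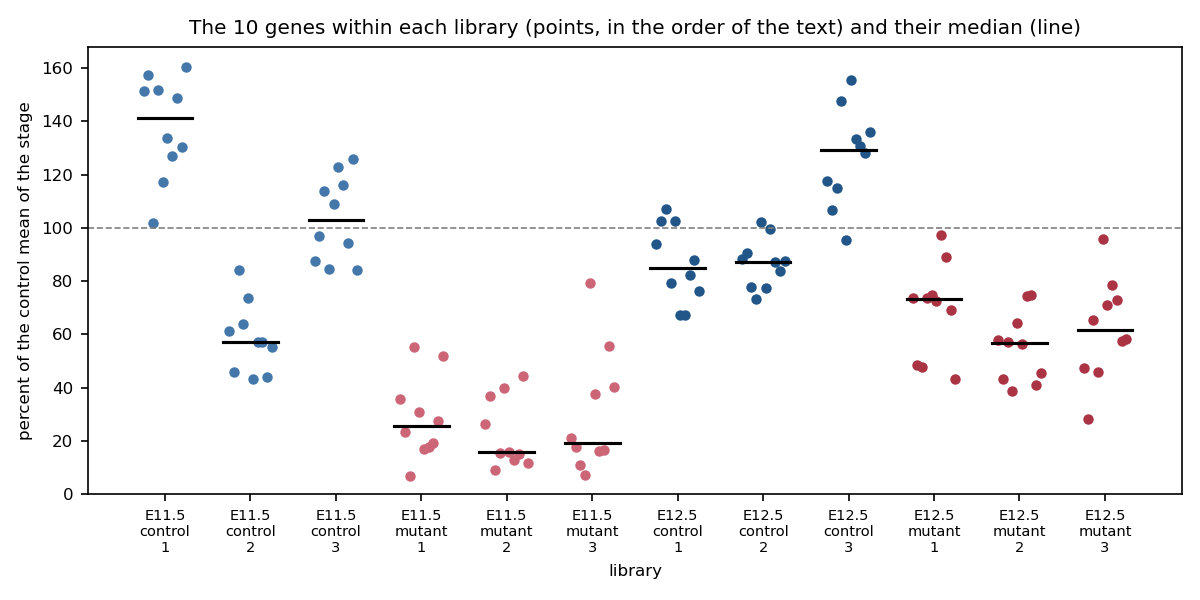
The 10 genes in each of the 12 libraries, as a percentage of the mean of the 3 controls of the same stage (vertical axis); each point is a gene in the order *Csf1r*, *Mrc1*, *Msr1*, *Ptprc*, *Cd68*, *C1qa*, *C1qb*, *C1qc*, *Fcer1g* and *Tyrobp*, the black line is the median of the 10, and the dashed line is 100%. The median was 57.0 to 141% in E11.5 controls, 15.8 to 25.6% in E11.5 mutants, 85.0 to 129% in E12.5 controls and 56.8 to 73.1% in E12.5 mutants.

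Sex differed between the genotypes at E11.5 only. In the single male mutant, mutant 3, 7 of the 9 genes lay below all 3 controls, which were male too, as did 35.7% of all genes, and the median level was 21.1% of the control mean. *Cd68*, at 79.2%, and *Fcer1g* were the 2 that did not. With sex as a term in the fit, the 9 log2 fold changes stayed negative and ran from -3.16 (*Msr1*) to -0.31 (*Cd68*), and 0 of 9 were called (edgeR), with *Csf1r* at -2.22, *Mrc1* at -2.48, *C1qb* at -2.59 and *C1qa* at -1.38. *Cd68*, *Fcer1g*, *C1qa* and *Msr1* were highest, among the mutants, in the male. The part of sex in the E11.5 difference beyond this fit was not tested.

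The same comparison at E12.5 asked whether the difference was present 1 day later. All 10 genes again had a lower mean in the mutants, but the differences were smaller. The log2 fold changes of the 9 genes ran from -1.31 (*Mrc1*) to -0.25 (*C1qb*) with a median of -0.73, where the median over all 12257 genes was 0. The sum of the 10 genes was 98.6, 102 and 133 CPM in controls and 56.7, 59.8 and 73.3 CPM in mutants, so the sums did not overlap. Every mutant lay below every control for 5 of 9 genes (*Csf1r*, *Mrc1*, *Msr1*, *Fcer1g* and *Tyrobp*), as for 14.2% of all genes, and 3 of 9 (*Csf1r*, *Mrc1* and *Tyrobp*) were past both thresholds, where 2.95% of all genes were called and 1.36% were called lower. The 3 became 0 with all 12 libraries in 1 fit and 4 with DESeq2, where 132 and 435 genes were called over all. They became 1 without control 1, control 3, mutant 2 or mutant 3, where 151, 368, 287 and 282 were called over all. As at E11.5, nothing is read from these shares.

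*Mrc1* differed most at E12.5, with 492, 507 and 549 counts in controls and 230, 234 and 136 in mutants, or 31.6 ± 2.68 and 12.7 ± 3.36 CPM (SD, n = 3). The controls were close together, and the level was 2.47-fold lower in mutants (log2 fold change -1.31, SE 0.17). *Csf1r* had 490, 538 and 658 counts against 379, 341 and 249, at 34.4 ± 5.35 and 20.5 ± 4.57 CPM, 1.66-fold lower (-0.73, SE 0.16). *Msr1* had 73, 62 and 84 counts against 32, 44 and 45 (-0.80, SE 0.24), so its mutants had several times the counts of the E11.5 mutants and remained below all controls.

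*Tyrobp* had 77, 103 and 147 counts in E12.5 controls and 43, 52 and 59 in mutants, a log2 fold change of -1.01 (SE 0.25). *Fcer1g* had 85, 95 and 133 against 66, 45 and 56 (-0.83, SE 0.25). For both adaptors the 3 mutants of E12.5 lay below the 3 controls. *Cd68* had 89, 104 and 89 counts against 64, 63 and 84, and mutant 3, at 5.50 CPM, lay above the lowest control, at 5.47 CPM (-0.34, SE 0.20). *Ptprc* had 36, 39 and 72 counts against 33, 20 and 21 and overlapped by 2.20 against 2.21 CPM (-0.91, SE 0.35, in the fit with no minimum).

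The C1q chains overlapped between genotypes at E12.5. *C1qa* had 60, 81 and 149 counts in controls and 64, 57 and 64 in mutants (log2 fold change -0.57, SE 0.31). *C1qb* had 73, 126 and 155 against 104, 91 and 86 (-0.25, SE 0.24), and *C1qc* had 75, 93 and 128 against 80, 77 and 67 (-0.33, SE 0.22). The high value of control 3 carried much of these differences. With control 3 left out, the fitted values were -0.10 for *C1qa*, 0.01 for *C1qb* and -0.09 for *C1qc*. Control 3 was the highest control for 9 of the 10 genes and was also the only male control, and its median over the 10 genes was 129% of the control mean, beside 85.0 and 87.3% in controls 1 and 2. Among the females, both mutants lay below both controls for 7 of 9 genes (26.4% of all genes), all but *C1qa* and *C1qb*, and between the 2 males the mutant was lower for 9 of 9 (53.2% of all genes).

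**Figure D3:**
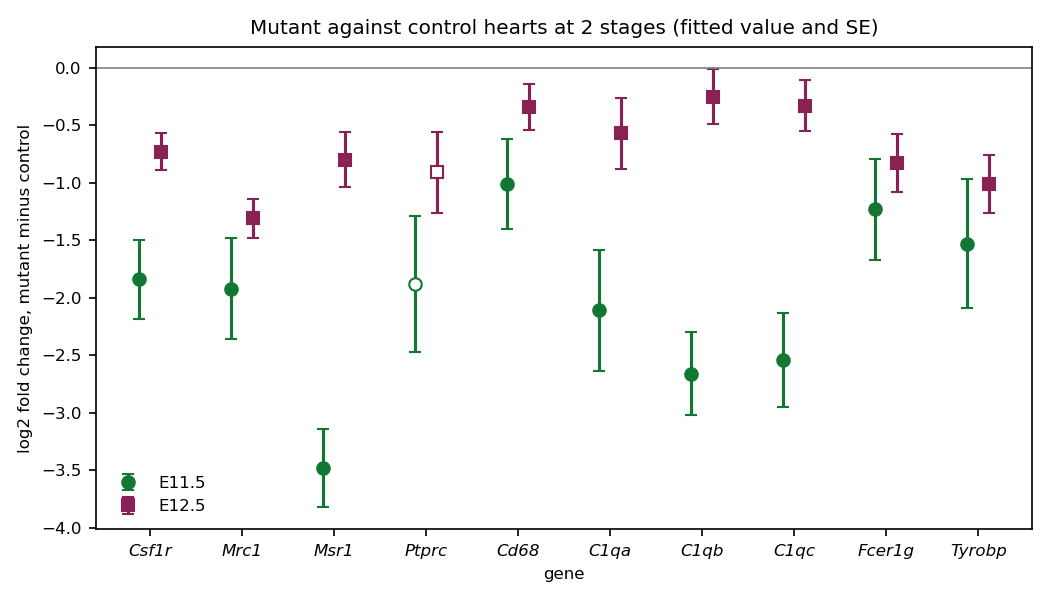
Fitted log2 fold change of each gene (vertical axis, mutant minus control; bars are ± 1 SE from 3 against 3 libraries) at E11.5 (circles) and E12.5 (squares); open symbols mark *Ptprc*, which was fitted with no minimum level. All 20 values lie below 0, and the E11.5 value lies below the E12.5 value for every gene.

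Each of the 9 genes had a less negative log2 fold change at E12.5 than at E11.5. The value at the later stage less that at the earlier ran from 0.41 (*Fcer1g*) to 2.69 (*Msr1*) with a median of 1.10, and was 2.41 for *C1qb*, 2.21 for *C1qc* and 1.55 for *C1qa*. In the fit over all 12 libraries 0 of 12270 genes (0% of all) had a difference between stages that passed the thresholds (edgeR). Before adjustment 333 genes were positive and 217 negative with p under 0.05, and DESeq2 called 40. Of the 9 genes, 5 were among those 333, 3 were called with DESeq2 and 0 with limma. The median of the 9 fell to 0.66 without E11.5 control 1, the highest control of that stage. The 9 genes were chosen with earlier results of these libraries known, so these counts are a description. No change of the mutant effect between the stages is read from them.

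In control hearts the genes were compared between E12.5 and E11.5. *Mrc1* was higher at E12.5 in all 3 libraries, at 31.6 ± 2.68 CPM against 13.6 ± 7.59 at E11.5 (log2 fold change 1.21, SE 0.32), and was the 1 of 9 genes past both thresholds, where 5.28% of all genes were called. None of the 9 was called with sex as a term (*Mrc1* at 1.32), with all 12 libraries in 1 fit, or without E11.5 control 3 or any single E12.5 control (edgeR), and the log2 fold change of *Mrc1* was between 0.85 and 1.71 with 1 library left out. Without E11.5 control 1 the number was 2. For these chosen genes nothing is read from the number called. *Cd68* also did not overlap (log2 fold change 0.33, SE 0.23), so 2 of 9 genes were higher in every E12.5 control, as were 18.3% of all genes. *Csf1r* and *Tyrobp*, both with a log2 fold change of 0.70 (SE 0.27 and 0.37), and *C1qa* (0.79, SE 0.43) overlapped. E11.5 control 1 lay above the lowest E12.5 control in each of the 3, and for *C1qa* so did E11.5 control 3, at 4.21 CPM against 3.96. *Msr1* (-0.08), *C1qb* (-0.14), *C1qc* (0.09) and *Fcer1g* (0.09) had nearly the same fitted level at both stages. The median over the 9 genes was 0.33, beside 0.01 over all 12252 genes. The controls were all male at E11.5 and mostly female at E12.5, so stage and sex were partly confounded, and this comparison shares its controls with both comparisons above.

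Per length, the 10 genes were expressed at a low level throughout. In E12.5 controls *Tyrobp* was highest, at 11.7 ± 3.70 RPKM (SD, n = 3), followed by *Fcer1g* at 9.70 ± 2.37, *Csf1r* at 8.87 ± 1.38, *C1qb* at 6.73 ± 2.22, *Mrc1* at 5.94 ± 0.504, *C1qc* at 5.71 ± 1.53, *Cd68* at 5.69 ± 0.228, *C1qa* at 5.45 ± 2.63, *Msr1* at 1.12 ± 0.220 and *Ptprc* at 0.530 ± 0.219 RPKM. From *Tyrobp* to *C1qa* no neighbours in this order differed by more than the larger of their SDs, and *Msr1* and *Ptprc* stood below the rest. In E11.5 mutants the order was *Fcer1g* (3.90 ± 1.29), *Tyrobp* (2.48 ± 1.47), *Cd68* (2.27 ± 1.16), *Csf1r* (1.52 ± 0.404), *C1qb* (1.17 ± 0.182), *C1qc* (0.913 ± 0.114), *C1qa* (0.744 ± 0.389), *Mrc1* (0.668 ± 0.254), *Ptprc* (0.107 ± 0.105) and *Msr1* (0.105 ± 0.0245). Here only *C1qb* and *C1qc*, and *Mrc1* and *Ptprc*, differed from their neighbour by more than the larger SD. The C1q chains thus ranked below *Cd68* in the E11.5 mutants, while *C1qb* was above it in E11.5 controls, at 7.46 ± 2.81 against 4.53 ± 1.05 RPKM.

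In E11.5 controls the levels per length were 9.15 ± 4.45 RPKM for *Fcer1g*, 7.46 ± 2.81 for *C1qb*, 7.17 ± 3.88 for *Tyrobp*, 5.47 ± 2.54 for *Csf1r*, 5.37 ± 2.48 for *C1qc*, 4.53 ± 1.05 for *Cd68*, 3.16 ± 1.56 for *C1qa*, 2.56 ± 1.43 for *Mrc1*, 1.19 ± 0.176 for *Msr1* and 0.411 ± 0.189 for *Ptprc*. With these wide SDs only the step between *Msr1* and *Ptprc* was more than the larger SD. In E12.5 mutants they were 5.73 ± 0.928 RPKM for *Tyrobp*, 5.62 ± 0.823 for *C1qb*, 5.42 ± 1.37 for *Fcer1g*, 5.30 ± 1.18 for *Csf1r*, 4.50 ± 0.503 for *C1qc*, 4.45 ± 0.919 for *Cd68*, 3.63 ± 0.486 for *C1qa*, 2.38 ± 0.632 for *Mrc1*, 0.638 ± 0.101 for *Msr1* and 0.280 ± 0.0973 for *Ptprc*. The step from *C1qa* to *Mrc1* and those below it were larger than the SDs. *Mrc1*, which had a place in the middle of the order in E12.5 controls, was thus eighth in the E12.5 mutants.

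*Csf1r* lies at chr18:61100598-61132149 of GRCm38, *Msr1* at chr8:39581685-39642673, *Cd68* at chr11:69664213-69666153, *Tyrobp* at chr7:30413760-30417585, *Fcer1g* at chr1:171229572-171234365 and *Ptprc* at chr1:138062861-138175708. *Csf1r* shares exonic bases with the antisense gene *Hmgxb3*, and no use of the strand is stated. *Hmgxb3* had 652 to 831 counts in E11.5 controls and 663 to 931 in mutants (log2 fold change 0.18, SE 0.12, adjusted p = 0.713, edgeR), so it did not move with *Csf1r*.

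Other genes of macrophages and leukocytes were read from 5 lists with 83 genes: transcription factors, surface receptors, lysosomal and effector genes, signalling genes and pan-leukocyte genes. These and the other lists below were chosen with earlier results of these libraries known. Their calls and shares are a description and not an independent check. At E11.5, 56 were tested and 0 were called (edgeR). Before adjustment 18 were lower and 1 was higher with p under 0.05, beside 632 and 609 of 12197 over all genes. DESeq2 called 10 of the 56 and limma 2, beside 248 and 27 over all genes. Of the 56, 40 had a negative log2 fold change and the median was -0.37, beside 6094 of 12197 genes and a median of 0 over all genes. Every mutant was below every control for 21 of the 56, and for 8.62% of all genes. The surface receptors had a median of -0.70 (9 of 11 negative) and the lysosomal and effector genes one of -0.60 (15 of 17 negative). The transcription factors had a median of 0.21 (3 of 8 negative), the signalling genes one of -0.36 (8 of 11) and the pan-leukocyte genes one of -0.19 (5 of 9).

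At E12.5, 6 of 58 tested genes of the 5 lists were downregulated and 0 were upregulated (edgeR), where 1.36% of all genes were called lower. *Lyve1*, a hyaluronan receptor of resident macrophages and of lymphatic endothelium, had 199, 259 and 164 counts in controls and 39, 37 and 44 in mutants (log2 fold change -2.29, SE 0.20, adjusted p = 0.000814). The study itself names *Lyve1* from these libraries, so its direction is not independent evidence. *Lyz2*, which encodes lysozyme, had 716, 560 and 583 counts against 249, 402 and 217 (-1.06, SE 0.19, adjusted p = 0.0121, edgeR). *F13a1*, a coagulation factor subunit made by macrophages, was at 224, 212 and 331 against 139, 93 and 100 counts (-1.14, SE 0.23, adjusted p = 0.0209, edgeR). The lowest control was above the highest mutant for each of the 3.

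The other three were surface receptors. *Cx3cr1*, the fractalkine receptor, fell by 0.84 on the log2 scale (SE 0.19, adjusted p = 0.0310, edgeR), from 118, 147 and 165 to 86, 77 and 65 counts. *Adgre1*, which encodes the F4/80 antigen, fell by 1.14 (SE 0.29, adjusted p = 0.0460, edgeR), from 82, 134 and 165 to 72, 44 and 47 counts. *P2ry12*, a purine receptor, fell by 1.46 (SE 0.36, adjusted p = 0.0416, edgeR), from 29, 32 and 46 to 7, 15 and 15 counts. *Lyve1* was called in each of 15 alternatives and *Lyz2* in 15 of 16. *F13a1* was called in 11 of 15, *Cx3cr1* in 8 of 15, *Adgre1* in 6 of 15 and *P2ry12* in 4 of 14. Without control 1 only *Lyve1* was left of the 6, with *Lyz2* at -0.88. The number left was 2 without mutant 2, 3 without control 3 or mutant 3, 4 without control 2 and 5 without mutant 1. Over the 58 genes, 43 had a negative log2 fold change and the median was -0.20, beside 6169 of 12257 and a median of 0 over all genes.

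The genes of the 5 lists did not all follow the 10 markers. Chosen after their values were seen, *Ctss* (log2 fold change -2.16 at E11.5 and -0.85 at E12.5), *Fcgr3* (-2.38 and -0.82) and *Trem2* (-2.11 and -0.07), which encode a lysosomal protease, an Fc receptor and a lipid-sensing receptor that signals through the product of *Tyrobp*, had large differences at E11.5 with adjusted p of 0.0713, 0.225 and 0.152 (edgeR). *Spi1*, also chosen so, had 47, 26 and 31 counts in E11.5 controls and 35, 18 and 15 in mutants (log2 fold change -0.57, SE 0.40, adjusted p = 0.739, edgeR). *Maf* and *Cebpb*, the 2 transcription factor genes of highest level per length, had -0.74 and 0.35 at E11.5 and 0.02 and 0.63 at E12.5, and neither was called. The 5 genes of highest level per length in these lists, a choice made after the values were seen, were *Lgmn* (-0.17 at E11.5 and -0.05 at E12.5), *Cyba* (0.38 and 0.15), *Ctsb* (-0.15 and -0.05), *Grn* (-0.16 and -0.21) and *Arhgdib* (0.25 and 0.48), and none was called. Every mutant was above every control for *Arhgdib* at E12.5, and *Lyz2*, next but one in level, fell by 1.06 on the log2 scale at E12.5. Summed over the 77 of the 83 genes with a recovered count, the level was 1484 to 1605 CPM in E11.5 controls and 1308 to 1526 in mutants, so the sums overlapped.

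**Figure D4:**
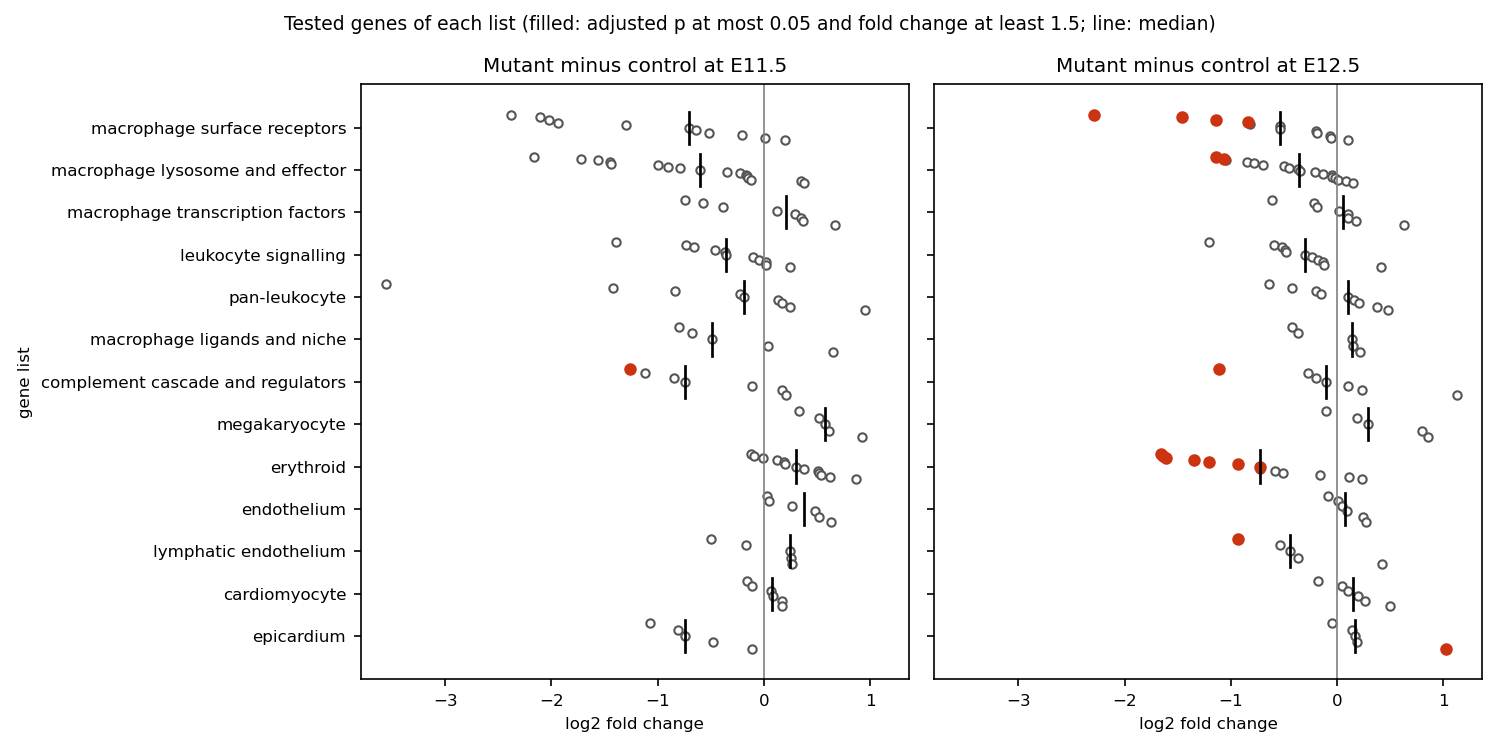
Log2 fold change (horizontal axis, mutant minus control) of every tested gene of 13 lists (vertical axis) at E11.5 (left) and E12.5 (right); filled points were called, and the black line is the median of the list. The 6 filled points of the macrophage surface receptors and the lysosomal and effector genes and the 7 of the erythroid genes at E12.5 all lie below 0.

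In controls, 6 of 60 tested genes of the 5 lists differed between the stages (edgeR), as did 5.28% of all genes. *Lyve1* (log2 fold change 1.56, adjusted p = 0.00601), *P2ry12* (1.19, adjusted p = 0.0465) and *Inpp5d*, a lipid phosphatase of blood cells (0.67, adjusted p = 0.0308), were higher at E12.5. *Pf4*, a chemokine of megakaryocytes and some macrophages (-1.48, adjusted p = 0.0176), *Ikzf1*, a transcription factor of blood cells (-1.16, adjusted p = 0.0446), and *Arhgdib* (-0.66, adjusted p = 0.0404) were lower. With sex as a term none of the 6 was called. In the same comparison without that term, 3 of 5 tested genes of the lymphatic endothelium were called higher at E12.5 (*Prox1*, *Flt4* and *Reln*, edgeR). The median log2 fold change of that list was 0.64, with 4 positive and 1 negative. Of 5 tested megakaryocyte genes 1, *Ppbp*, was called lower (edgeR), and all 5 were negative. The part of these cell types in the differences of *Lyve1* and *Pf4* was not tested.

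Of the ligands of the receptor encoded by *Csf1r*, only *Csf1* was expressed above the minimum. It had 427, 575 and 657 counts in E11.5 controls and 378, 388 and 247 in mutants (-0.68 on the log2 scale, SE 0.18, adjusted p = 0.217, edgeR), with every mutant below every control. At E12.5 it had 322, 420 and 386 against 305, 441 and 449 counts (0.15, SE 0.13, adjusted p = 0.540, edgeR) and the groups overlapped. In controls it fell by 0.69 on the log2 scale from E11.5 to E12.5 (adjusted p = 0.0324, edgeR). *Il34* had at most 8 counts in any library and was not tested. *Cxcl12*, the most abundant of the 6 ligand and niche genes, had log2 fold changes of 0.04 and 0.22. Between genotypes 0 of 5 tested were called at either stage by edgeR, DESeq2 or limma. With p under 0.05 before adjustment (edgeR), 2 were lower and 1 higher at E11.5, beside 632 and 609 of 12197 over all genes. At E12.5, 1 was higher, beside 1368 of 12257.

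Of the other complement genes, 1 of 7 tested was called at E11.5. *Serping1*, the C1 inhibitor that acts on the proteases bound to C1q, had 491, 507 and 643 counts in E11.5 controls and 227, 246 and 189 in mutants (log2 fold change -1.26, SE 0.17, adjusted p = 0.0420, edgeR). Its call was lost without any of 5 of the 6 libraries and with sex as a term, where the log2 fold changes were between -1.34 and -1.08. At E12.5 its log2 fold change was -0.27 (adjusted p = 0.263, edgeR), and the difference between stages had an adjusted p of 0.360.

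Markers of other blood cells were read for what else the hearts could hold. Neutrophil genes summed to 1.46 to 3.79 CPM and mast cell genes to 0.0654 to 2.15 CPM over the 12 libraries, and of the lymphoid genes 8 had at most 10 counts in every library and *Ms4a1* had none. *Prtn3* and *Mpo*, *Cpa3*, and *Lck* and *Cd79b* were the most abundant of these lists, and *Zbtb46* of the dendritic cell list, and none was called. Among megakaryocyte genes 5 of 5 tested had a positive log2 fold change at E11.5 (median 0.58) and 4 of 5 at E12.5 (median 0.29). None was called by edgeR, DESeq2 or limma. Before adjustment 2 were higher at E11.5 and 1 at E12.5 (p under 0.05, edgeR), beside 609 of 12197 and 1368 of 12257 over all genes. *Itga2b*, an integrin of platelets, had 0.61 and 0.29. Liver genes summed to 39.6 to 58.7 CPM in E11.5 controls and 29.6 to 85.9 in mutants. At E12.5 they summed to 31.4 to 38.4 CPM in controls and 22.2 to 92.9 in mutants. Mutant 1 was the highest library of each stage. None was called by edgeR, DESeq2 or limma. Before adjustment 3 of 5 were higher at E12.5 (p under 0.05, edgeR), beside 1368 of 12257 over all genes. The part of other tissue in the libraries was not tested.

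Erythroid genes were called at 1 stage only. At E11.5 they summed to 4663 to 5751 CPM in controls and 4687 to 6074 in mutants, and 0 of 13 were called by edgeR, DESeq2 or limma. Before adjustment 3 were higher (p under 0.05, edgeR), beside 609 of 12197 over all genes. At E12.5 they summed to 3993 to 6526 CPM in controls and 2308 to 2929 in mutants, and 7 of 13 were downregulated (1.36% of all genes). Among these were *Slc4a1*, an anion exchanger (log2 fold change -1.64, adjusted p = 0.00234), *Epb42*, a membrane skeleton protein (-1.66, adjusted p = 0.00552), and the globin genes *Hbb-y* (-0.93, adjusted p = 0.00570), *Hba-x* (-1.35, adjusted p = 0.00600), *Hba-a1* (-0.73, adjusted p = 0.0123) and *Hbb-bh1* (-1.61, adjusted p = 0.0140), all by edgeR. The paper reports *Slc4a1* as downregulated from these same libraries, so its direction is not independent evidence. The difference between stages was called for 0 of 13 erythroid genes (edgeR and limma) and for 7 by DESeq2, which called 40 over all genes. In edgeR 9 were negative before adjustment (p under 0.05), beside 217 of 12270 over all genes. The sums of the erythroid list and of the 10 macrophage genes were thus both lower in the E12.5 mutants, whereas at E11.5 only the macrophage sum was, and the erythroid sums overlapped. The part of blood content in the E12.5 difference was not tested.

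Genes of the heart's own cells were read in the same way. Cardiomyocyte genes summed to 11520 to 13300 CPM in E11.5 controls and 10670 to 13960 in mutants, and endothelial genes to 845 to 1062 and 986 to 1477 CPM. None of these 12 genes was called at either stage by edgeR, DESeq2 or limma. Before adjustment 3 were higher at E11.5 and 5 at E12.5 (p under 0.05, edgeR), beside 609 of 12197 and 1368 of 12257 over all genes. Genes of the lymphatic endothelium, a cell type that also expresses *Lyve1*, summed to 158 to 166 CPM in E12.5 controls and 118 to 135 in mutants, with a median log2 fold change of -0.44. Of the 5 tested, 4 (*Prox1*, *Flt4*, *Nrp2* and *Reln*) lay lower in every mutant than in any control with p under 0.05 before adjustment (edgeR). Over all genes 1251 of 12257 were lower at this p. *Pdpn* lay higher in every mutant, and 1 gene of the list was called by edgeR, DESeq2 and limma. This was *Reln*, a secreted glycoprotein, which fell by 0.93 on the log2 scale (adjusted p = 0.00638, edgeR). The part of lymphatic cells in the difference of *Lyve1* was not tested. At E11.5 the lymphatic sums overlapped and 0 were called (edgeR, DESeq2 and limma), with 0 under an unadjusted p of 0.05. The epicardial genes summed to 441 to 684 CPM in E11.5 controls and 277 to 389 in mutants, with 5 of 5 negative (median -0.74). Of the 5, 0 were called by edgeR or limma and 3 by DESeq2, which called 248 over all genes. Before adjustment 4 were lower (p under 0.05, edgeR), beside 632 of 12197 over all genes. At E12.5 *Msln*, a mesothelial surface protein, rose by a log2 fold change of 1.03 (adjusted p = 0.0140, edgeR). The epicardial sum was thus low in the same E11.5 mutants as the 10 macrophage genes, and its part in their difference was not tested.

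Outside all lists, the genes whose log2(CPM + 0.5) over the 12 libraries was most like the mean standardised level of the 10 genes were *Phyhd1* (Pearson r 0.967), *Fcrls* (0.966), *Hpgds* (0.959), *Adamtsl3* (0.943) and *Fcgrt* (0.936), out of 12269 genes ranked. The group differences and depth are shared by all points, so r is a description only. *Fcrls*, an Fc receptor-like gene of macrophages and microglia, had a mean of 5.23 CPM in E11.5 controls and 0.929 in mutants, and of 7.82 and 4.15 CPM at E12.5. *Hpgds*, a prostaglandin D synthase, had 2.13 and 0.518 CPM at E11.5 and 2.92 and 1.44 CPM at E12.5. *Fcgrt*, the neonatal Fc receptor, had 14.9 and 8.81 CPM at E11.5 and 19.0 and 15.3 CPM at E12.5. Within the lists the most alike were *Mpeg1* (0.956), *Ctss* (0.954), *Cx3cr1* (0.952), *Adgre1* (0.951) and *F13a1* (0.948).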

How the data were processed

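RNA-seq of 12 embryonic heart libraries was used. Per the labels, reads were aligned with Bowtie2 to mm10 and normalised with DESeq. The paper names an Illumina NextSeq 500 and the series text a GAIIx. The authors deposited a table of values named RPKM, treated here as a signal, because each value is a whole count multiplied by a gene length and a library factor. The deposited comparisons give the average count of each group, an expected count that can hold a fraction, from which the factors were fitted on 11829 genes. All counts then lay within 1.15e-05 of whole numbers, for 17827 genes, and 1597 genes had no count. The 944 genes of the table that the comparisons lack (chromosomes X and Y) were not tested. The authors' fold changes and p-values were not used. 

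A gene was tested where its RPKM averaged 0.5 or more, with edgeR 4.0.16 (quasi-likelihood, TMM) in R 4.3.3, with Benjamini-Hochberg adjustment over all genes tested. Standard errors come from its F statistic. The steps were tested on simulated data. Alternatives were no minimum, a minimum of 5, median-ratio scaling, DESeq2 1.42.0, limma 3.58.1 on log2(RPKM + 0.1, 0.5 or 1), no fold threshold, all 12 libraries in 1 fit, sex as a term, the replicate number as a block, and each library left out. The members and lists were chosen with earlier results of these data known. Genes were named by rule: every member, the called genes of each list (at most 6), the 2 of highest level in a list with none, and the 5 most alike outside the lists. Replicates of a group differed by more than sampling noise. A sex was given from 4 Y-linked genes (at least 100 counts). Symbols follow current names (*Spi1*, *Adgre1*, *C1s1* and *Epb42* have older ones in the files). Counting error is only a lower limit of the error.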

Additional observations from a re-analysis of the deposited data

Results flagged for a closer look

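*Hba-a1*, an alpha globin gene of the erythroid list, moved in opposite directions at the 2 stages. At E11.5 every mutant library was above every control (log2 fold change 0.30), and at E12.5 every mutant was below every control (log2 fold change -0.73). In the test of the difference between stages its adjusted p was 0.286 (edgeR), so the difference did not pass the threshold.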

How the results depend on the processing

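The 9 log2 fold changes of the members stayed negative in every alternative at E11.5, and at E12.5 all but that of *C1qb* did. Their median at E11.5 was -1.92, and it was -1.23 with a mean RPKM of at least 5 (1 gene left), -1.47 and -1.19 with limma on log2(RPKM + 0.5) and on log2(RPKM + 1), and -2.26 to -1.43 with 1 library left out, highest without control 1. The median difference between stages, 1.10, was 0.61 with limma on log2(RPKM + 1) and 0.66 to 1.35 with 1 library left out. In the 5 lists 0 genes were called at E11.5, and 4 with no minimum, 10 with DESeq2, 2 with limma at each pseudocount and 10 with all 12 libraries in 1 fit. At E12.5 the 6 became 1 with a mean RPKM of at least 5, 3 with limma on log2(RPKM + 1), 2 with all 12 libraries, and 1 to 5 with 1 left out. The 6 between stages in controls became 2 with a mean RPKM of at least 5, 2 with all 12 libraries, 0 with sex as a term, and 1 to 6 with 1 left out. Over all genes the E11.5 count of 14 was 73 with no minimum, 6 with a mean RPKM of at least 5, 248 with DESeq2, 27 and 26 with limma on log2(RPKM + 0.5) and log2(RPKM + 1), 221 with all 12 libraries, 29 with sex as a term and 0 to 15 with 1 left out. The E12.5 count of 362 was 157 with a mean RPKM of at least 5, 613 with no fold threshold, 132 with all 12 libraries and 151 to 368 with 1 left out. The difference between stages, 0, was 40 with DESeq2 and 0 to 10 with 1 left out. The count between stages in controls, 647, was 363 with a mean RPKM of at least 5, 417 with limma on log2(RPKM + 1), 1402 with no fold threshold, 336 with all 12 libraries, 19 with sex as a term and 44 to 1406 with 1 left out. The cause of these changes was not tested. With counts under 100 in most members, depth limits single values.

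The labels state no pairing of same-numbered libraries, and whether they were paired is not known. Their deviations correlated at -0.01, 0.41 and 0.28 at E11.5 and at 0.05, 0.08 and 0.04 at E12.5. Libraries of different number correlated at -0.47 to 0.21 at E11.5 and at -0.09 to 0.03 at E12.5. With the replicate number as a block, the E11.5 counts were 4 in the 5 lists and 73 over all genes, and the E12.5 counts 6 and 424.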

Other observations

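Of the X-linked genes of the lists, which the tests left out, *Cybb*, the catalytic chain of the phagocyte oxidase, had 23, 14 and 10 counts in E11.5 controls and 13, 8 and 1 in mutants, and at E12.5 21, 37 and 47 in controls and 20, 13 and 9 in mutants. *Btk*, a kinase of B and myeloid cells, had 37, 33 and 38 counts against 40, 46 and 44 at E11.5 and 60, 41 and 68 against 63, 33 and 36 at E12.5. *Alas2*, the erythroid enzyme of haem synthesis, had 1560, 1358 and 1342 counts against 2229, 2402 and 1147 at E11.5, and 2158, 2017 and 3197 against 1047, 857 and 760 at E12.5. The number of X chromosomes differs between the libraries, so no comparison was made.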
